A study of Homo sapiens with 8 samples.

Results

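The nucleolar ribosome biogenesis genes are 43 listed genes whose products transcribe, modify and assemble ribosomal RNA in the nucleolus. They were found by matching gene identifiers to symbols, and all 43 were present among the 61533 gene identifiers of the count tables. The study profiled RNA of A431, a human epidermoid carcinoma line, and CAL27, the other squamous carcinoma line (SCC) of the design. Cells of either line were given NEDD8i or its solvent DMSO for 16 h, with 2 libraries in each of the 4 groups and 8 libraries in all. Neither line carries a labelled genetic change, and the inhibitor is labelled just NEDD8i. The count tables' headers mark its libraries MLN, and no source used here states its dose. Whether the replicates were separate cultures is not given either, so the spread between these libraries may be technical. The p-values rest on that spread, pooled over the 4 groups and shared in part across genes.

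NEDD8 is a ubiquitin-like protein that is attached to cullins and thereby switches on the cullin-RING ubiquitin ligases, so a NEDD8 inhibitor lowers the activity of those ligases. Ribosome production starts when RNA polymerase I transcribes the ribosomal DNA into a long precursor RNA in the nucleolus. Small nucleolar ribonucleoproteins (snoRNPs) then mark this precursor, box C/D particles by methylation and box H/ACA particles by pseudouridylation. The small subunit processome and the large subunit assembly factors fold, cleave and package it into the precursors of the ribosomal subunits. The transcription factor MYC is known for raising the expression of many of these genes in growing and malignant cells.

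Total counts per library ranged from 49037868 to 62509817. Levels are CPM, counts relative to the library size, with sizes scaled by the trimmed mean of M-values (TMM), and with 3' end libraries they are compared between groups and not between genes. In A431 the members took 0.499% and 0.498% of all counts under DMSO and 0.518% in each NEDD8i library. In CAL27 they took 0.703% and 0.715% under DMSO and 0.645% and 0.666% under NEDD8i. The mitochondrial share of counts was lower under NEDD8i in both lines, at 2.69% and 3.15% against 1.96% and 2.27% in A431 and at 1.77% and 1.56% against 1.45% and 1.015% in CAL27, and its part in the results was not tested. All 10 squamous epithelial markers were above 1 CPM in every group, and their summed level was 9989 to 10128 CPM under DMSO and 13938 to 14496 CPM under NEDD8i in A431, and 14871 to 14907 CPM and 21220 to 22038 CPM in CAL27. In both lines 8 of the 10 were called higher (edgeR) and KRT5 lower, and TP63 was called lower in CAL27 (-2.18). Markers of other cell types were low and also differed with the treatment. Summed fibroblast markers were 35.3 to 38.6 CPM under DMSO and 17.6 to 18.3 CPM under NEDD8i in A431, and 20.2 to 23.7 and 6.45 to 10.6 CPM in CAL27. Endothelial markers summed to 19.6 to 21.9 and 5.30 to 5.56 CPM in A431 and to 6.01 to 6.63 and 10.7 to 10.8 CPM in CAL27. Leukocyte markers summed to 6.38 to 6.78 and 0.875 to 1.78 CPM in A431 and to 16.3 to 17.8 and 1.74 to 1.77 CPM in CAL27, with PTPRC at 0 counts throughout. The part of these markers in the results was not tested. In bulk RNA, fewer cells of a kind and less RNA per cell cannot be told apart.

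Of the 43 members, 42 had a mean of at least 10 CPM over the libraries. NOP2, a methyltransferase of the large subunit pathway, was measured at 0.0546 to 0.418 CPM, and 70.9% of its exonic bases lie inside exons of an overlapping gene model, where reads were dropped. NOP2 was tested, but its values carry no information on its expression. NHP2 shares 48.2% of its exonic bases with other genes, and NOP58, NOP14, BRIX1, RRS1 and POLR1C share 13.7%, 13.0%, 11.8%, 11.3% and 10.7%, so the levels of these 6 are uncertain. NPM1 and RRN3 have near-identical copies elsewhere in the genome, to which some of their reads may have been lost. Among the 42 members without NOP2, the higher replicate exceeded the lower by a median of 1.04 to 1.06 times in a group and by at most 1.25 times, for GAR1 in A431 DMSO.

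The first comparison asked which of these genes responded to NEDD8i in A431. Of the 43 members, 26 rose, 4 fell and 13 were not called at an adjusted p under 0.05 (edgeR quasi-likelihood test, adjusted by Benjamini and Hochberg over 18738 genes). Over all genes tested, 43.6% were called, 22.5% higher and 21.1% lower. Expression raises the chance of a call, so the counts were also set beside the 9063 genes with a mean of at least 10 CPM, a limit chosen after the data were seen. There, 67% were called, 39% higher and 27.9% lower, against 60.5% of the members higher and 9.3% lower. The changes were small, with log2 changes from -0.70 to 0.83, a median of 0.24 beside -0.01 over all genes, and no member called at 2-fold or more, a size that 13.4% of all genes passed. When libraries were scaled by their totals alone, the median of all genes was -0.11 and the members split into 19 higher and 9 lower. BOP1 (0.12), NOP56 (0.07), RRN3 (0.13), RRP1B (0.12), TCOF1 (0.10), UTP15 (0.24) and UTP6 (0.14) then lost their calls, and NCL (-0.19), NPM1 (-0.11), UTP14A (-0.24), POLR1A (-0.16) and NAT10 (-0.13) were called lower. The count of 4 lower members was 2 without A431 DMSO replicate 1 and 2 without A431 NEDD8i replicate 2.

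In CAL27 the same comparison gave 14 members higher, 14 lower and 15 not called by edgeR. Over all genes tested, 49.6% were called, 23.2% higher and 26.4% lower. Among genes of at least 10 CPM 73.5% were called, 38% higher and 35.4% lower, against 32.6% of the members in each direction. The share of members called in CAL27 was therefore near that of other genes of this expression, in both directions. Their log2 changes ran from -0.99 to 0.59, with a median of 0.06 beside -0.04 over all genes. None was called at 2-fold or more, a size that 18.7% of all genes passed. With library totals alone the median of all genes was -0.12 and the members split into 10 higher and 17 lower, so the direction of the members' median in CAL27 turned with the scaling, to -0.02. LYAR (0.14), NOLC1 (0.10), PES1 (0.06) and RRP1B (0.08) then lost their calls, and NHP2 (-0.25), POLR1C (-0.24) and WDR75 (-0.23) were called lower.

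**Figure D1:**
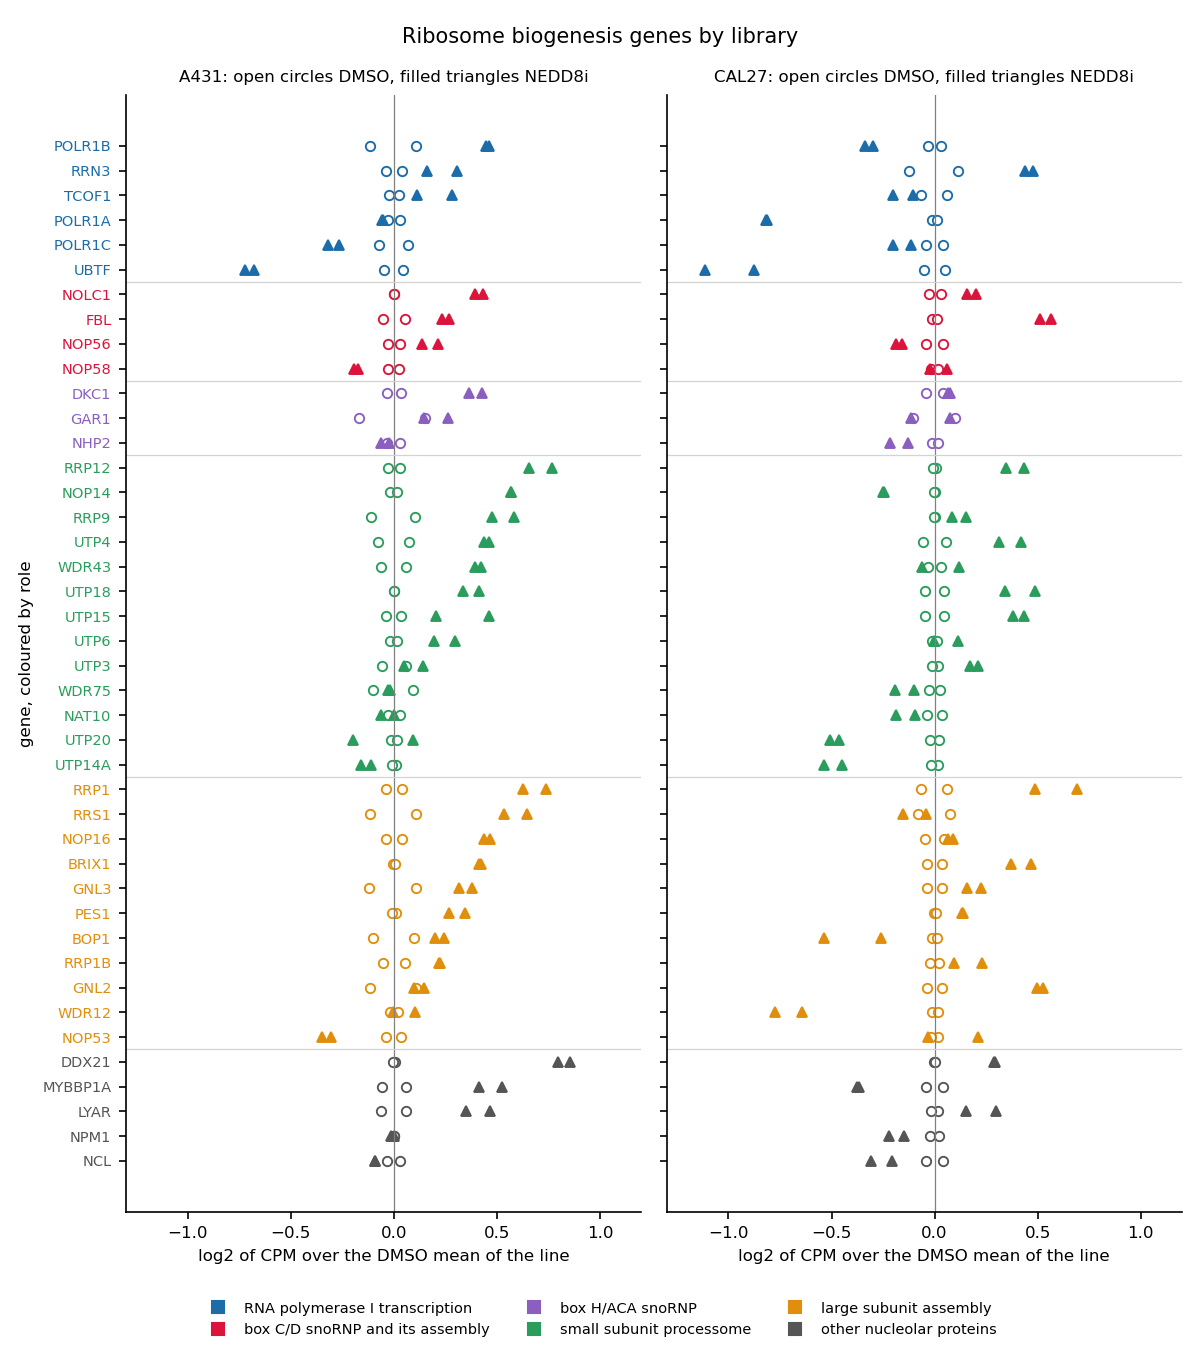
Level of 42 members (NOP2 left out) in each library, as log2 CPM over the mean of the same line's DMSO libraries, in A431 and in CAL27. Open circles are DMSO libraries, filled triangles NEDD8i libraries, and colours mark the role. In A431 most triangles lie to the right of 0, and in CAL27 they lie on both sides.

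RNA polymerase I genes held the members with the largest falls. UBTF (chr17:44205033-44221626, minus strand, GRCh38), the upstream binding factor that keeps ribosomal DNA open for RNA polymerase I, was measured at 117 and 124 CPM in A431 DMSO and 73.0 and 75.3 CPM in A431 NEDD8i. In CAL27 its levels were 86.3 and 92.8 CPM under DMSO and 41.4 and 48.7 CPM under NEDD8i. In both lines each NEDD8i library lay below both DMSO libraries. Such separation was common, as 6474 of the 18738 genes tested lay lower in this way in A431 and 7404 in CAL27. A further 6156 and 6567 lay higher. The log2 change of UBTF was -0.70 ± 0.07 (standard error, as for all log2 values) in A431 (edgeR adjusted p = 4.54e-07) and -0.99 ± 0.07 in CAL27 (adjusted p = 4.63e-09). With TMM scaling it was the only member called lower in both lines, and with library totals alone 7 members were. The fall was deeper in CAL27 by 0.29 ± 0.10 on the log2 scale (edgeR adjusted p = 0.0382), a difference that lost its call with DESeq2, with other scalings and in 5 of the 8 fits without 1 library, among them the fit without CAL27 NEDD8i replicate 1 (-0.19).

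POLR1A (chr2:86020216-86106155, minus strand), the largest catalytic subunit of RNA polymerase I, had 84.2 and 87.8 CPM in A431 DMSO and 82.8 and 82.6 CPM in A431 NEDD8i. In CAL27 it had 123 and 126 CPM under DMSO and 70.7 and 71.0 CPM under NEDD8i. It fell in CAL27 by 0.82 on the log2 scale (edgeR adjusted p = 1.07e-09), while its A431 change of -0.06 ± 0.05 was called only with library totals alone (-0.16), and the difference between the responses was -0.76 ± 0.08 (adjusted p = 7.03e-07). POLR1B (chr2:112541915-112579818, plus strand), the other large catalytic subunit, moved in opposite directions. Its levels were 49.3 and 42.2 CPM in A431 DMSO against 62.9 and 62.3 CPM in A431 NEDD8i, and 73.6 and 77.0 CPM in CAL27 DMSO against 61.2 and 59.6 CPM in CAL27 NEDD8i. It rose in A431 (0.45 ± 0.07, edgeR adjusted p = 7.31e-05) and fell in CAL27 (-0.32 ± 0.07, adjusted p = 0.00132). DMSO and NEDD8i libraries did not overlap in either line, as for most genes tested. Its responses differed between the lines by -0.77 ± 0.10 (edgeR adjusted p = 1.5e-05), close to the -0.76 of POLR1A. With TMM scaling the 2 subunits thus differed in their A431 calls, while both fell in CAL27. Whether their responses differ from each other was not tested.

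RRN3, the initiation factor that makes RNA polymerase I competent to start, rose in both lines, by 0.24 ± 0.08 in A431 and 0.46 ± 0.08 in CAL27. POLR1C, a subunit shared with RNA polymerase III, fell in A431 (-0.29 ± 0.08), and its CAL27 change of -0.16 ± 0.08 was not called. TCOF1, the nucleolar phosphoprotein treacle that works with UBTF at ribosomal DNA, rose in A431 (0.20 ± 0.06) and fell in CAL27 (-0.15 ± 0.06). All of these calls but the CAL27 rise of RRN3 depended on single libraries. In A431, RRN3 lost its call without DMSO replicate 2 (0.19) or NEDD8i replicate 2 (0.17), POLR1C without DMSO replicate 1 (-0.21) or NEDD8i replicate 2 (-0.26), and TCOF1 without DMSO replicate 1 (0.19) or NEDD8i replicate 2 (0.12). In CAL27, TCOF1 lost its call without any 1 of 5 libraries, A431 libraries among them, and kept a log2 change of -0.07 without DMSO replicate 2. That call was borderline (edgeR adjusted p = 0.0498). It was also lost with DESeq2 (-0.12), RLE scaling (-0.12) and only the groups compared (-0.12). In all, 3 of the 6 RNA polymerase I members rose and 2 fell in A431, and 1 rose and 4 fell in CAL27. With library totals alone the A431 counts were 1 and 3. Among 10 RNA polymerase I genes outside the members, 3 rose and 1 fell in A431, and 5 rose and 0 fell in CAL27. The CAL27 falls thus describe the listed members and not RNA polymerase I genes in general. These counts and those of the other roles below stand beside the shares among genes of at least 10 CPM. Those shares were 39% higher and 27.9% lower in A431 and 38% and 35.4% in CAL27.

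Of the 4 box C/D members, 3 rose and 1 fell in A431, and 2 rose and 1 fell in CAL27. FBL, the fibrillarin methyltransferase that modifies ribosomal RNA, had 164 and 176 CPM in A431 DMSO and 204 and 200 CPM in A431 NEDD8i, and 193 and 196 CPM in CAL27 DMSO and 277 and 287 CPM in CAL27 NEDD8i. It rose in both lines, by 0.25 ± 0.05 in A431 and 0.54 ± 0.05 in CAL27, and it was 1 of 3 members with a response called higher in CAL27 (difference 0.29 ± 0.07, edgeR adjusted p = 0.0032). NOLC1, a chaperone of both snoRNP classes, rose by 0.41 ± 0.04 in A431 and 0.18 ± 0.04 in CAL27, where the call was lost with library totals alone (0.10). The scaffold proteins NOP56 and NOP58 pair in the same particle and did not move alike. NOP56 rose in A431 (0.18 ± 0.05) and fell in CAL27 (-0.17 ± 0.05), and these calls were lost with library totals alone in A431 (0.07) and without A431 DMSO replicate 2 (0.14), A431 NEDD8i replicate 2 (0.15) or CAL27 DMSO replicate 2 (-0.11). NOP58 fell in A431 (-0.18 ± 0.06) and was not called in CAL27 (0.02 ± 0.06). Its difference between the lines, 0.20 ± 0.08, was called with DESeq2 (0.24), RLE scaling (0.24) and the filter at 1 CPM (0.22). The A431 fall lost its call without A431 DMSO replicate 1 (-0.15), A431 NEDD8i replicate 1 (-0.19) or A431 NEDD8i replicate 2 (-0.16).

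Of the 3 box H/ACA members, DKC1, the dyskerin pseudouridine synthase, was called in A431, and none was called in CAL27. DKC1 had 136 and 130 CPM in A431 DMSO and 179 and 171 CPM in A431 NEDD8i, a rise of 0.40 ± 0.05 (edgeR adjusted p = 4.31e-06). Its CAL27 levels of 193 and 183 CPM under DMSO and 196 and 198 CPM under NEDD8i gave a change of 0.07 ± 0.05, and the responses differed by -0.33 ± 0.07 (adjusted p = 0.00143). The structural proteins GAR1 and NHP2 changed by 0.20 ± 0.12 and -0.04 ± 0.08 in A431 and by -0.02 ± 0.12 and -0.17 ± 0.08 in CAL27, with no call. GAR1 was called in A431 without DMSO replicate 1 (0.38), and NHP2 in CAL27 with library totals alone (-0.25). Among 11 snoRNP genes outside the members, 6 rose and 0 fell in A431, and 8 rose and 1 fell in CAL27.

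Among the 13 small subunit processome members, 8 rose and none fell in A431, and 4 rose and 4 fell in CAL27 (edgeR, with 5 not called in each line). With library totals alone 6 rose and 2 fell in A431. RRP12, a nuclear export and maturation factor, went from 69.3 and 66.6 CPM to 116 and 107 CPM in A431, a rise of 0.71 ± 0.06, and from 103 and 102 CPM to 131 and 139 CPM in CAL27, a rise of 0.39 ± 0.06. UTP4, UTP15 and UTP18, subunits of the processome, also rose in both lines, by 0.45 ± 0.06, 0.34 ± 0.09 and 0.37 ± 0.07 in A431 and by 0.37 ± 0.06, 0.41 ± 0.09 and 0.42 ± 0.07 in CAL27. The A431 call of UTP15 was lost without NEDD8i replicate 2 (0.21). None of UTP4, UTP15 and UTP18 had a called difference between the lines.

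NOP14 (chr4:2937936-2963406, minus strand), a processome factor needed for early cleavage, had 30.9 and 31.6 CPM in A431 DMSO and 46.3 CPM in each A431 NEDD8i library. In CAL27 it had 44.7 and 44.5 CPM under DMSO and 37.6 and 37.5 CPM under NEDD8i. It rose in A431 (0.57 ± 0.07, edgeR adjusted p = 5.09e-06) and fell in CAL27 (-0.25 ± 0.07, adjusted p = 0.00805), and the responses differed by -0.82 ± 0.10 (adjusted p = 6.96e-06). The CAL27 fall lost its call without CAL27 DMSO replicate 1 (-0.23) or replicate 2 (-0.23). UTP14A and UTP20, further processome proteins, fell in CAL27 by 0.49 each on the log2 scale and changed by -0.13 ± 0.08 and -0.05 ± 0.09 in A431. Their differences between the lines, -0.36 ± 0.11 and -0.44 ± 0.12, lost their calls in 5 and 2 of the fits without 1 library, such as the fit without A431 NEDD8i replicate 1 for UTP20 (-0.28) and without CAL27 NEDD8i replicate 2 for UTP14A (-0.32).

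RRP9, a U3 snoRNP protein, and WDR43, a further processome protein, rose in A431, by 0.53 ± 0.09 and 0.41 ± 0.07, with CAL27 changes of 0.12 ± 0.09 and 0.03 ± 0.07. The responses differed by -0.41 ± 0.13 for RRP9 and -0.38 ± 0.09 for WDR43, and that of RRP9 lost its call in 4 of the fits without 1 library, with -0.29 without A431 DMSO replicate 2. UTP6 rose in A431 (0.25 ± 0.06), a call lost without A431 NEDD8i replicate 1 (0.20), and was not called in CAL27 (0.06 ± 0.06). NAT10, the acetyltransferase of small subunit RNA, fell in CAL27 by 0.14 on the log2 scale, a call lost in 5 of the fits without 1 library (-0.09 without CAL27 DMSO replicate 1) and with DESeq2, and changed by -0.03 ± 0.05 in A431. UTP3 and WDR75 were not called in either line, with log2 changes of 0.10 ± 0.10 and -0.03 ± 0.07 in A431 and 0.19 ± 0.10 and -0.15 ± 0.07 in CAL27.

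Large subunit assembly genes numbered 12, of which 8 rose and 1 fell in A431 and 5 rose and 2 fell in CAL27. With library totals alone BOP1 (0.12) and RRP1B (0.12) lost their A431 calls, and PES1 (0.06) and RRP1B (0.08) their CAL27 calls. RRP1 (chr21:43789577-43805293, plus strand), a factor of early large subunit maturation, had 46.6 and 44.3 CPM in A431 DMSO and 75.8 and 70.0 CPM in A431 NEDD8i. In CAL27 it had 53.7 and 58.6 CPM under DMSO and 78.8 and 90.6 CPM under NEDD8i. The rises were 0.68 ± 0.08 and 0.59 ± 0.08, and the difference between the lines of -0.09 ± 0.11 was not called. DMSO and NEDD8i libraries did not overlap, as for most genes tested. BRIX1, an early assembly factor, rose by 0.42 ± 0.07 in each line, and RRP1B, a relative of RRP1, rose by 0.22 ± 0.06 and 0.16 ± 0.06. RRP1B lost its A431 call without DMSO replicate 2 (0.17) and its CAL27 call in 4 of the fits without 1 library, with 0.09 without CAL27 NEDD8i replicate 1.

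PES1, BOP1 and WDR12 form the PeBoW complex, which is needed for maturation of the large subunit RNAs, and its 3 genes went different ways. PES1 rose by 0.31 ± 0.05 in A431 and 0.14 ± 0.05 in CAL27, the latter call lost with library totals alone (0.06) and in 3 of the fits without 1 library (0.13 without CAL27 NEDD8i replicate 1). BOP1 had 109 and 95.4 CPM in A431 DMSO and 121 and 117 CPM in A431 NEDD8i, and 139 and 141 CPM in CAL27 DMSO and 96.7 and 117 CPM in CAL27 NEDD8i. It rose in A431 (0.22 ± 0.08) and fell in CAL27 (-0.39 ± 0.08), and the A431 call was lost without DMSO replicate 2 (0.12) or NEDD8i replicate 1 (0.20). WDR12 went from 58.2 and 59.3 CPM to 34.3 and 37.7 CPM in CAL27, a fall of 0.71 on the log2 scale (edgeR adjusted p = 3.02e-07), while in A431 the levels were 49.1 and 50.4 CPM under DMSO and 49.6 and 53.5 CPM under NEDD8i. The responses of BOP1 and WDR12 differed between the lines by -0.61 ± 0.11 and -0.76 ± 0.10 (adjusted p = 0.000285 and 1.82e-05), and that of PES1 was not called (-0.17 ± 0.07) except without A431 NEDD8i replicate 2 (-0.22).

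The nucleolar GTPase GNL2 rose in CAL27 from 68.5 and 71.8 CPM to 101 and 99.1 CPM (0.51 ± 0.07), and its A431 levels of 43 and 50.3 CPM under DMSO and 49.9 and 51.6 CPM under NEDD8i overlapped. GNL3, nucleostemin, rose in A431 (0.35 ± 0.08) and changed by 0.19 ± 0.08 in CAL27 without a call (edgeR adjusted p = 0.0551), although 9 of the 16 alternatives, DESeq2 among them (0.22), called it higher there. NOP53, which brings the RNA exosome to the large subunit precursor, fell in A431 from 192 and 183 CPM to 152 and 147 CPM (-0.33 ± 0.06) and was not called in CAL27 (0.09 ± 0.06), except without CAL27 NEDD8i replicate 1 (0.20). GNL2 and NOP53, with FBL, were the 3 members whose response was called higher in CAL27, by 0.39 ± 0.10 for GNL2 and 0.42 ± 0.09 for NOP53. GNL2 was called in A431 only without DMSO replicate 2 (0.24). RRS1 and NOP16, further assembly factors, rose in A431 by 0.59 ± 0.10 and 0.45 ± 0.08 and changed by -0.10 ± 0.10 and 0.08 ± 0.08 in CAL27. Both differed between the lines, by -0.68 ± 0.14 and -0.38 ± 0.11, and the call of NOP16 was lost in 3 of the fits without 1 library (-0.32 without A431 DMSO replicate 2 or CAL27 DMSO replicate 2).

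The other 5 nucleolar proteins included the largest rise. DDX21 (chr10:68956135-68985068, plus strand), an RNA helicase that binds ribosomal DNA and snoRNAs, had 229 and 227 CPM in A431 DMSO and 411 and 396 CPM in A431 NEDD8i. In CAL27 it had 385 and 386 CPM under DMSO and 471 and 473 CPM under NEDD8i. It rose 1.77-fold in A431 (0.83 ± 0.04, edgeR adjusted p = 3.41e-11) and 1.22-fold in CAL27 (0.29 ± 0.04, adjusted p = 9.46e-06), and the responses differed by -0.53 ± 0.06 (adjusted p = 1.27e-06). MYBBP1A (chr17:4538897-4555386, minus strand), a nucleolar protein that binds transcription factors, had 46.7 and 43.1 CPM in A431 DMSO and 64.6 and 59.8 CPM in A431 NEDD8i, and 151 and 143 CPM in CAL27 DMSO and 114 and 113 CPM in CAL27 NEDD8i. It rose in A431 (0.47 ± 0.06) and fell in CAL27 (-0.37 ± 0.06), and the difference of -0.84 ± 0.09 was the largest among members with a called difference (adjusted p = 9.28e-07).

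The abundant nucleolar phosphoproteins NCL and NPM1 were not called in A431 with TMM scaling. NPM1, a histone and ribosome chaperone, had 989 and 987 CPM in A431 DMSO and 979 and 988 CPM in A431 NEDD8i, and 1448 and 1495 CPM in CAL27 DMSO and 1262 and 1329 CPM in CAL27 NEDD8i. NCL, nucleolin, had 780 and 814 CPM under DMSO and 748 CPM in each NEDD8i library in A431, and 978 and 1039 CPM under DMSO and 815 and 875 CPM under NEDD8i in CAL27. Both fell in CAL27, by 0.18 and 0.26 on the log2 scale (edgeR adjusted p = 0.00042 and 8.86e-05). The A431 changes were -0.01 ± 0.04 and -0.09 ± 0.04, and both were called lower with library totals alone (-0.11 and -0.19), NCL also with the replicate block (-0.09). The difference between the lines of NPM1, -0.18 ± 0.05, lost its call without CAL27 DMSO replicate 2 (-0.14), and that of NCL, -0.16 ± 0.06, was not called (adjusted p = 0.0501) but was under 6 of its 15 alternatives, the replicate block among them (-0.16). LYAR, a nucleolar zinc finger protein, rose by 0.41 ± 0.09 in A431 and by 0.23 ± 0.09 in CAL27, the latter call lost in 4 of the fits without 1 library (0.15 without CAL27 NEDD8i replicate 1).

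The next comparison asked whether the lines responded alike, by the difference of their responses. Of the 43 members, 20 had a lower response in CAL27 than in A431, 3 a higher one and 20 were not called (edgeR). Over all genes tested, 34% were called, 19.8% lower and 14.2% higher. Among genes of at least 10 CPM 56.7% were called, 33.4% lower and 23.3% higher, against 46.5% of the members lower and 7.0% higher. The median difference of the members was -0.18, beside -0.04 over all genes. A total of 13 members rose in both lines (30.23% of the members, beside 13.3% of all genes and 24.2% of genes of at least 10 CPM). UBTF fell in both, beside 12.8% and 18.3%. Another 6 rose in A431 and fell in CAL27 (13.95%, beside 3.29% and 6.09%). These tallies depend on the scaling: with library totals alone 7 members rose in both lines, 7 fell in both (UBTF, NCL, NPM1, UTP14A, POLR1A, POLR1C and NAT10) and 3 rose in A431 and fell in CAL27. The 6 of opposite direction were NOP14, NOP56, BOP1, POLR1B, TCOF1 and MYBBP1A, of which POLR1B and MYBBP1A kept both calls under all 16 alternatives. The count of 6 was 3 without A431 DMSO replicate 2 and 3 without CAL27 DMSO replicate 2. No member fell in A431 and rose in CAL27, a pattern of 1.7% of all genes and 3.14% of genes of at least 10 CPM, except NOP53 without CAL27 NEDD8i replicate 1. In A431 alone 10 were called (12.5% of all genes and 15.2% of genes of at least 10 CPM), in CAL27 alone 8 (18.5% and 21.7%) and in neither line 5 (37.9% and 11.4%), and a call in a single line does not show a difference. Across the 43 members, the log2 changes in the 2 lines had a Pearson correlation of 0.47. NOP2, whose values carry no information on its expression, is included. The correlation was 0.57 across the 124 other pathway genes counted below and 0.37 across 18738 genes. Genes are not independent replicates and these values are given as a description.

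**Figure D2:**
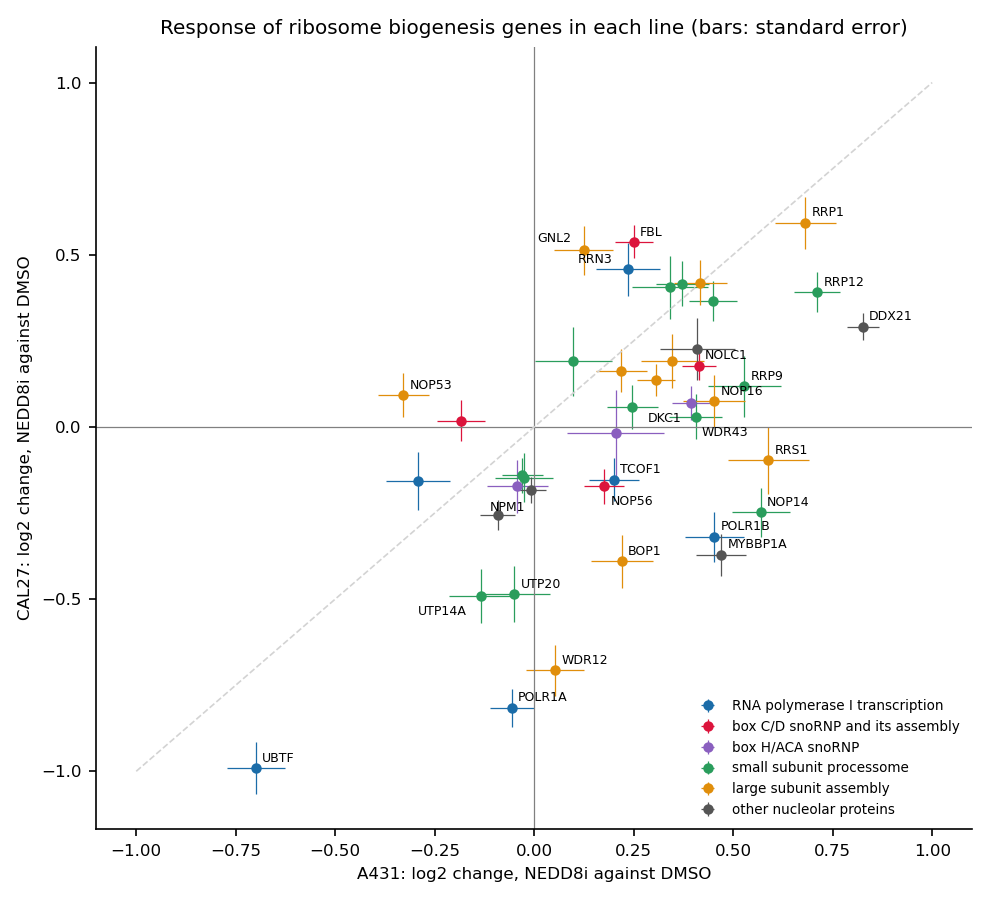
Log2 change of each member under NEDD8i in A431 (horizontal) and CAL27 (vertical), NOP2 left out, with standard errors as bars and colours for the role. The dashed diagonal marks equal responses. Most points lie below it, and POLR1B, NOP14, MYBBP1A and BOP1 lie to the right of 0 and below 0.

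MYC moved with opposite sign in the 2 lines. Its levels were 89.3 and 79.9 CPM in A431 DMSO and 232 and 241 CPM in A431 NEDD8i, and 211 and 235 CPM in CAL27 DMSO and 85.5 and 88.1 CPM in CAL27 NEDD8i. It rose 2.79-fold in A431 and fell 2.57-fold in CAL27, with log2 changes of 1.48 ± 0.06 and -1.36 ± 0.06 (edgeR adjusted p = 3.77e-12 and 6.65e-12). The MYC pattern had the same signs as the 6 members that rose in A431 and fell in CAL27, whereas 13 members rose in both lines. The part of MYC in the members' changes was not tested.

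**Figure D3:**
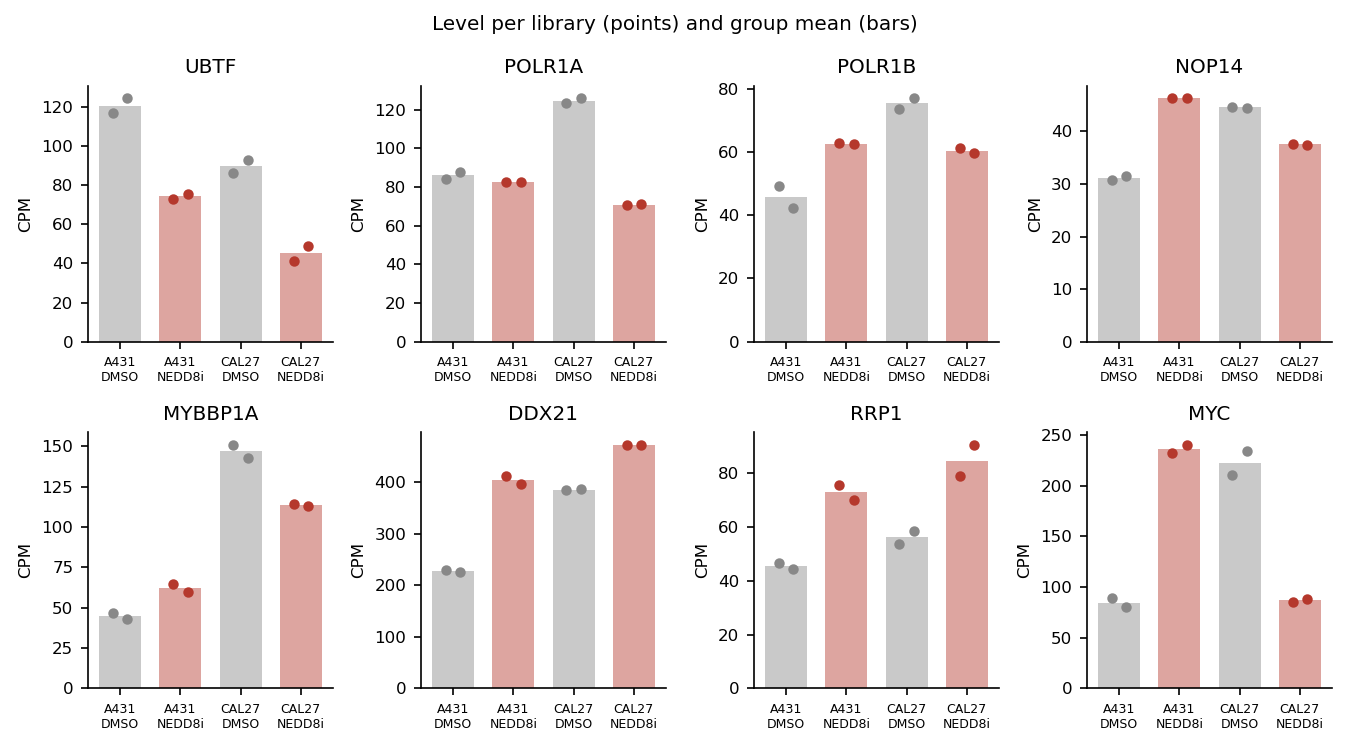
CPM of UBTF, POLR1A, POLR1B, NOP14, MYBBP1A, DDX21, RRP1 and MYC in the 4 groups, with bars for the group mean and points for each of 2 libraries. POLR1B, NOP14 and MYBBP1A are higher under NEDD8i in A431 and lower in CAL27, as is MYC, and UBTF is lower under NEDD8i in both lines.

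Promoter sequence was examined because MYC with its partner MAX binds the E-box CACGTG. RefSeq (GRCh38.p14) gave 300 bases, from 250 before to 50 after the start, for 36 of the 43 members, in 44 promoters. NOLC1, RRS1, RRP12, RRP1B, TCOF1, NOP58 and BOP1 had no entry in the table. CACGTG reads the same on both strands, and it was found in 17 of the 44 promoters (38.6%), in 17 members, beside 7.26% of all 35116 promoters and 9.06% of 17332 promoters of genes tested. The ETS motif ACTTCCGG, read on both strands, was in 7 of the 44 (15.9%) beside 4.14% of all and 6.71% of those of genes tested, and the palindromic NRF1 motif in 3 (6.82%) beside 1.24% and 1.77%. Overlaps between the 3 motifs were allowed, and a match is a description of the letters and not a bound site. Windows of 30 bases, 5' to 3' on the gene's strand with the E-box in capitals, are shown for 8 members whose responses differ in kind: DDX21, UTP4, UTP18 and FBL rose in both lines, GNL2 rose in CAL27, NOP14 and MYBBP1A moved oppositely, and UTP20 fell in CAL27.
DDX21: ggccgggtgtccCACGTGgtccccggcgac
UTP4: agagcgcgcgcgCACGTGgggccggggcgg
UTP18: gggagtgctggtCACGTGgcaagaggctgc
FBL: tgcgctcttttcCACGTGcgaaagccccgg
GNL2: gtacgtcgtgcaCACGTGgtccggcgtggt
NOP14: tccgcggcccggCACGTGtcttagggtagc
MYBBP1A: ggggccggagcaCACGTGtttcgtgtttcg
UTP20: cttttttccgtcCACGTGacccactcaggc

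These windows lie at chr10:68956604-68956633 for DDX21, chr16:69132621-69132650 for UTP4, chr17:51260445-51260474 for UTP18 and chr12:101280083-101280112 for UTP20, all on the plus strand. On the minus strand lie those of FBL at chr19:39846356-39846385, GNL2 at chr1:37595917-37595946, NOP14 at chr4:2963374-2963403 and MYBBP1A at chr17:4555340-4555369. Of the 18 E-box matches in members, 10 began after the start. The 17 members with an E-box had 11 rises and no falls in A431 and 7 rises and 5 falls in CAL27. The 19 matched members without one had 9 rises and 3 falls in A431 and 4 rises and 7 falls in CAL27. Beside these counts, 39% of genes of at least 10 CPM rose and 27.9% fell in A431, and 38% and 35.4% in CAL27. With library totals alone the A431 counts were 11 rises and 2 falls with an E-box and 5 rises and 6 falls without. In CAL27 that scaling took the calls of LYAR and PES1, which have an E-box. It added falls of NHP2, POLR1C and WDR75, which have none. E-box members thus included genes that rose in both lines and genes that fell in CAL27, and the difference between the sets was not tested.

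Several members also carry snoRNA genes within their gene bodies on the same strand, and these libraries do not measure the snoRNAs. In DKC1, SNORA56 overlaps 4.19% of the exonic bases. The gene bodies of 7 members hold 22 snoRNA genes, with 5 in NOP56 (chr20:2652632-2658393, plus strand), 4 each in NOP58 and GNL3, 3 each in NCL and WDR43, 2 in DKC1 and 1 in NOP53. Among these 7 hosts 4 rose and 2 fell in A431, and none rose and 2 fell in CAL27, where GNL3 was called higher under 9 of 16 alternatives. With library totals alone 3 hosts rose and 3 fell in A431. Of the other 36 members, 22 rose and 2 fell in A431, and 14 rose and 12 fell in CAL27. Genes of at least 10 CPM were called higher in 39% and lower in 27.9% in A431, and in 38% and 35.4% in CAL27.

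Under DMSO the members stood higher in CAL27 than in A431. Of the 43, 35 were called higher in CAL27, 5 lower and 3 were not called (edgeR), and these comparisons share the DMSO libraries with the responses above. Over all genes tested, 58.9% were called, 29.9% higher and 29% lower. Among genes of at least 10 CPM 78.8% were called, 36% higher and 42.9% lower, against 81.4% of the members higher and 11.6% lower. The median log2 difference was 0.50 beside 0.05 over all genes, and 4 members were called at 2-fold or more, a size that 27.7% of all genes passed. UTP20 (chr12:101280105-101386618, plus strand) had 20.2 and 20.5 CPM in A431 DMSO and 89.5 and 86.8 CPM in CAL27 DMSO, a 4.33-fold difference (2.11 ± 0.09, edgeR adjusted p = 9.25e-13). MYBBP1A differed 3.27-fold (1.71 ± 0.06) and RRS1 by 1.03 ± 0.10 on the log2 scale. POLR1C stood lower in CAL27, by 1.36 on the log2 scale (23.5 and 22.1 CPM against 61.3 and 55.7 CPM), and UTP3, GAR1, UBTF and NOP53 were the other 4 lower ones, at -0.88 ± 0.10, -0.59 ± 0.12, -0.43 ± 0.07 and -0.37 ± 0.06. NHP2, PES1 and NOP2 were not called, although 5 of 15 alternatives called PES1 higher, DESeq2 among them (0.11). The calls of GNL3, NOP56, UTP18, UTP6 and WDR12 were lost without at least 1 library, with 0.09 for GNL3 without A431 DMSO replicate 1, 0.14 for NOP56 without CAL27 DMSO replicate 2, 0.15 for UTP18 without CAL27 DMSO replicate 2, 0.15 for UTP6 without A431 DMSO replicate 1 and 0.23 for WDR12 without CAL27 DMSO replicate 2.

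**Figure D4:**
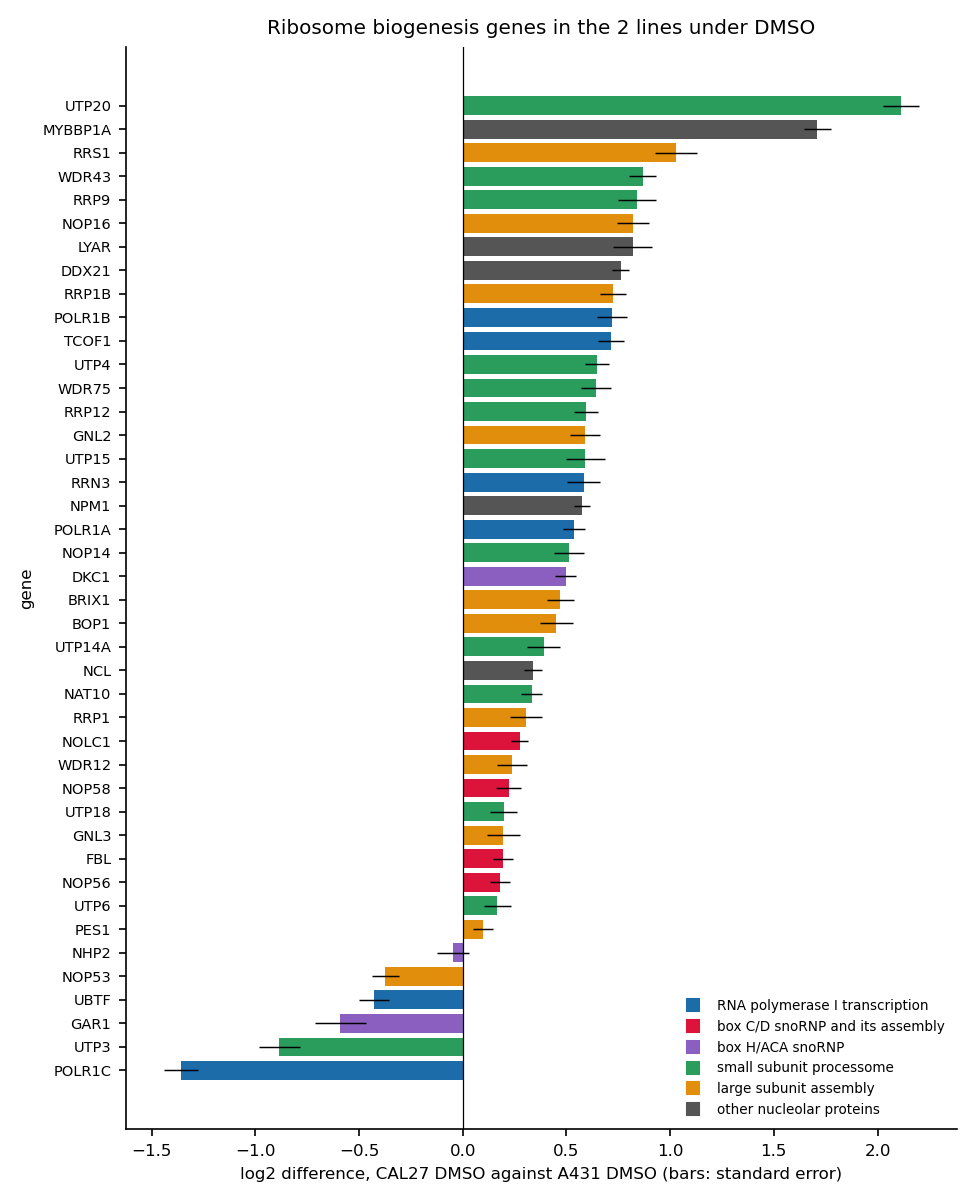
Log2 difference between CAL27 DMSO and A431 DMSO for 42 members (NOP2 left out), ordered by size, with standard errors as bars and colours for the role. Most bars point to CAL27, UTP20 and MYBBP1A furthest, and POLR1C, UTP3, GAR1, UBTF and NOP53 point to A431.

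The summed level of the members moved with the lines more than with the treatment. In A431 it was 4950 to 4973 CPM under DMSO and 5511 to 5558 CPM under NEDD8i, and in CAL27 6611 to 6768 CPM and 6472 to 6609 CPM. The CAL27 ranges adjoin without overlap, and the A431 ranges do not overlap either. Such sums weigh the abundant members most. In CAL27 the mean levels of NPM1 and NCL were 1471 and 1009 CPM under DMSO and 1296 and 845 CPM under NEDD8i. By edgeR, 14 members rose and 14 fell there, so the lower CAL27 sum does not describe the members in general.

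Other genes of the pathway, 124 in all (RNA polymerase I genes, further subunit factors, snoRNP proteins and snoRNA host genes), were counted by the same rule. In A431 62 of them rose and 4 fell, with a median of 0.22, and in CAL27 62 rose and 16 fell, with a median of 0.19 (edgeR). These were 50% higher and 3.2% lower in A431, beside 39% and 27.9% of genes of at least 10 CPM and 22.5% and 21.1% of all genes. In CAL27 they were 50% and 12.9%, beside 38% and 35.4% of genes of at least 10 CPM and 23.2% and 26.4% of all genes. These counts use TMM scaling and may depend on it, as those of the members do. With library totals alone the median of all genes was -0.11 in A431 and -0.12 in CAL27, and counts of the 124 genes under that scaling are not given. The difference of responses was called in 21 in favour of CAL27 and in 25 in favour of A431, with a median of -0.02. These were 16.9% and 20.2%, beside 23.3% and 33.4% of genes of at least 10 CPM and 14.2% and 19.8% of all genes. In A431 the largest rises were in TAF1A, a subunit of the selectivity factor of RNA polymerase I (1.31 ± 0.17), BYSL, a small subunit assembly factor (1.10 ± 0.06), PNO1, also of the small subunit (0.93 ± 0.07), and RIOK1, a kinase of late maturation (0.85 ± 0.09). In CAL27 they were in TAF1A (1.38 ± 0.17), the helicase DDX47 (1.25 ± 0.06), NIP7 of the large subunit (1.08 ± 0.05) and BYSL (1.04 ± 0.06). The largest falls were smaller, in DHX37 (-0.30 ± 0.07), NOP9 (-0.28 ± 0.07), POLR1F (-0.20 ± 0.06) and FCF1 (-0.17 ± 0.06) in A431 and in HEATR1 (-0.57 ± 0.05), RIOK2 (-0.48 ± 0.12), WDR18 (-0.46 ± 0.06) and SNHG8 (-0.42 ± 0.16) in CAL27. The members' CAL27 median of 0.06 lay below the 0.19 of these other genes, and this difference was not tested.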

How the data were processed

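Per the labels' protocols, the 8 libraries come from the QuantSeq FWD kit and hold 3' ends of transcripts. The authors deposited whole-number counts per gene. Alignment was to GRCh38 with STAR, per the submitters' processing notes, which also list DESeq2. Per the file headers, featureCounts 2.0.8 counted exons of basic GENCODE 39 without strand and with each mate counted singly, so gene and antisense reads cannot be told apart and counts are not independent molecules. Reads with several alignments or over several genes were dropped, per the file headers. Between 70.2% and 76.7% of a library's gene counts of 1 to 40 were even. The worth of 3 counts was 0.048 to 0.0612 CPM, which covers counting error only.

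Of 61533 identifiers, 61369 matched a symbol. From the deposited counts, edgeR 4.0.16 (R 4.3.3) fitted 1 quasi-likelihood model with a mean for each of 4 groups, TMM scaling and filterByExpr. This left 18738 genes, with 4 residual degrees of freedom. The spread of each gene was drawn toward that of other genes, with 12.3 prior degrees of freedom (median). The comparisons were the NEDD8i response of A431, that of CAL27, their difference (CAL27 minus A431), and the lines under DMSO. Adjusted p under 0.05 over all genes tested was a call. The standard error is the log2 change over the root of F. The model was tested on simulated data. Alternatives numbered 16 for the responses and 15 for the other 2 comparisons: DESeq2 1.42.0, 2 other scalings, 2 other filters, each library left out, only the groups compared, a replicate block, and counts divided by 2. All members were named, together with the 4 largest rises and falls per line among other pathway genes and MYC. The members and gene lists were chosen with earlier results of these data known.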

Additional observations from a re-analysis of the deposited data

Results flagged for a closer look

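The responses of 23 members differed between the lines by the interaction test (edgeR, CAL27 response minus A431 response, log2 scale). The response was lower in CAL27 for MYBBP1A (-0.84), NOP14 (-0.82), POLR1B (-0.77), POLR1A (-0.76), WDR12 (-0.76), RRS1 (-0.68), BOP1 (-0.61), DDX21 (-0.53), UTP20 (-0.44), RRP9 (-0.41), NOP16 (-0.38), WDR43 (-0.38), UTP14A (-0.36), TCOF1 (-0.35), NOP56 (-0.35), DKC1 (-0.33), RRP12 (-0.32), UBTF (-0.29), NOLC1 (-0.24) and NPM1 (-0.18). It was higher in CAL27 for NOP53 (0.42), GNL2 (0.39) and FBL (0.29). The calls of NOLC1, NOP16, NPM1, RRP12, RRP9, UBTF, UTP14A and UTP20 were lost under at least 1 alternative, RRP12 without A431 NEDD8i replicate 1 (-0.25) and NOLC1 without CAL27 DMSO replicate 2 (-0.19). The cause of these differences was not tested.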

How the results depend on the processing

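No called value of a member changed direction under the 16 alternatives of either response, or the 15 of the difference and of the DMSO comparison, which had no fit to only the groups compared and no replicate block, respectively. The count of A431 members called lower was 9 with library totals alone, against 4. Leaving out 1 library gave 22 to 26 members higher and 2 to 4 lower in A431, 11 to 15 higher and 10 to 14 lower in CAL27, 3 to 4 higher and 14 to 20 lower for the difference, and 30 to 36 higher under DMSO. A group left with 1 library is assumed to vary like the others. With the replicate number as a block the counts were 26 higher and 5 lower in A431, 13 and 14 in CAL27, and 3 and 21 for the difference. Deviations of same-numbered libraries correlated by 0.0056 in A431 and -0.0303 in CAL27. These values span all genes tested, low ones included, with 2 libraries a group. They cannot show whether same-numbered libraries shared a culture or a batch, which the labels do not state. A call was lost under at least 1 alternative for 9 of 30 members in A431, 8 of 28 in CAL27, 8 of 23 for the difference and 5 of 40 under DMSO, and one was gained for 7, 5, 4 and 1 members.

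Log2 values without a call changed sign as follows, and the cause was not tested. With library totals alone, A431 values were -0.0499 for WDR12 and -0.0037 for UTP3, CAL27 values were -0.0058 for NOP16, -0.0625 for NOP58, -0.0241 for UTP6, -0.0126 for DKC1 and -0.0524 for WDR43, and the DMSO value was 0.0322 for NHP2. GAR1 in CAL27 was 0.0149 with DESeq2, 0.014 with RLE scaling and 0.0109 with only the groups compared. Leaving out 1 library gave A431 ranges of -1.11 to 0.386 for NOP2, -0.0099 to 0.0055 for NPM1, -0.192 to 0.102 for UTP20, -0.12 to 0.0845 for WDR75 and -0.0552 to 0.0124 for NAT10. The CAL27 ranges were -0.0342 to 1.25 for NOP2, -0.0283 to 0.204 for NOP53, -0.0178 to 0.0543 for NOP58, -0.122 to 0.105 for GAR1 and -0.068 to 0.122 for WDR43. For the difference they were -0.141 to 0.0139 for RRP1B, -0.154 to 0.0093 for UTP4, -0.0465 to 0.192 for UTP15, -0.0365 to 0.101 for UTP18 and -0.0614 to 0.0506 for BRIX1.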
